A study of Homo sapiens with 3 samples.

Results

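The peaks described here lay just inside the starts of named genes in a ChIP-seq experiment on MECOM. They are 792 of the 3462 peaks in the list of the wild-type library, or 23.2% of the 3419 peaks with an annotated gene (exact 95% binomial interval 21.8 to 24.6). A peak was a member if the deposited annotation placed it inside its nearest gene, gave a distance of 1000 bp or less to that gene's start, and gave the gene a symbol. The 792 peaks belong to 784 genes. No measured height entered this choice.

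The experiment was done in HEK293T cells, an established human embryonic kidney line. Of the 3 libraries described, 1 came from cells given the pMYS-IG vector alone, 1 from cells given wild-type MECOM and 1 from cells given MECOM R750W, and the precipitation used an antibody to the AM tag, a short peptide added to the protein. The line is kidney-derived and received its MECOM from a vector, which limits it as a model of the blood cells named in the study's title. Only the wild-type list was analysed here, so nothing was compared between groups and no peak height has a replicate. Whether the antibody gave signal at these places without MECOM was not examined here. Positions are on the hg38 build.

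MECOM, also called EVI1, is a zinc finger protein with an N-terminal and a C-terminal set of fingers. The N-terminal set recognises a sequence built around a GATA core, the letters that GATA factors such as GATA2 also bind, and the C-terminal set recognises an ETS-like sequence. The first kilobase of a gene usually holds its first exon and the beginning of its first intron, and in many genes a CpG island runs across the start into this stretch. A peak there can therefore lie on core promoter, first exon or first intron. Exon positions were not used here.

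The sequences below are RefSeq promoter windows (GRCh38.p14) read 5′ to 3′ on the gene's strand. The first 6 are shown because the peak covered the whole 300-base RefSeq window, so that sequence is known under the peak itself, and they are the 6 with the highest fold enrichment of the 20 such members, leaving aside any on a chromosome that is not printed. Each runs from 250 bases before the RefSeq start to 30 after it. Capitals mark matches on either strand to any of 13 short motifs that are spelled out with their shares further on. The windows are those of DIRAS2 (chr9:90642795-90643074, minus strand), MON1A (chr3:49929782-49930061, minus strand), BPHL (chr6:3118461-3118740, plus strand), MYNN (chr3:169773146-169773425, plus strand), CORO1A (chr16:30183352-30183631, plus strand) and SNAP91 (chr6:83709072-83709351, minus strand).
DIRAS2: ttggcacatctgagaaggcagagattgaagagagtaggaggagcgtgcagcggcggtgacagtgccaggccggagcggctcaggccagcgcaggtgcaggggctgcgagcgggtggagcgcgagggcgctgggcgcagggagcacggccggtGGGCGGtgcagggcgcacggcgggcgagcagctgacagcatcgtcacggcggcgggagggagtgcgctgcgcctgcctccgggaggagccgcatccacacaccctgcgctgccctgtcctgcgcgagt
MON1A: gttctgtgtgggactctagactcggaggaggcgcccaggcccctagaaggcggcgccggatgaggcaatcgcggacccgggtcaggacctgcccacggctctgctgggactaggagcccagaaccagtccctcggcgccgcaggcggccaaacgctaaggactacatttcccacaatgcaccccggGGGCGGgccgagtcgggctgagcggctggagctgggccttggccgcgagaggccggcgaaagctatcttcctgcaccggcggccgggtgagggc
BPHL: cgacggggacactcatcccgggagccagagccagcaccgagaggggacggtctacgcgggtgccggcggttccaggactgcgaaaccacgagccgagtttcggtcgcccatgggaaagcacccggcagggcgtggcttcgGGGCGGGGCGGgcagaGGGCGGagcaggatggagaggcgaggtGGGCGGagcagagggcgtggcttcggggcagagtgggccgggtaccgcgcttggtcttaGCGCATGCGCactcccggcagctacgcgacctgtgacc
MYNN: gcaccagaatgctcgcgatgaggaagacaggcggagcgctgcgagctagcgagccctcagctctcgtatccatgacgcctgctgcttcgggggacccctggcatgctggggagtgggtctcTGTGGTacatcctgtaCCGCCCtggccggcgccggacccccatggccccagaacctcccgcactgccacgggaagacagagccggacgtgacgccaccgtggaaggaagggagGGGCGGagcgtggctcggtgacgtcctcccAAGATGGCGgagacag
CORO1A: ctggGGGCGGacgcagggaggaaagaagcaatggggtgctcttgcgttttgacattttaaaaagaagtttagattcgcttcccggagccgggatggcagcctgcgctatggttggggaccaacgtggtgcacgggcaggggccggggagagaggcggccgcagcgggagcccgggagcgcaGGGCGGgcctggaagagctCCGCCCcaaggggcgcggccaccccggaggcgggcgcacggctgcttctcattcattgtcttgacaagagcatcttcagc
SNAP91: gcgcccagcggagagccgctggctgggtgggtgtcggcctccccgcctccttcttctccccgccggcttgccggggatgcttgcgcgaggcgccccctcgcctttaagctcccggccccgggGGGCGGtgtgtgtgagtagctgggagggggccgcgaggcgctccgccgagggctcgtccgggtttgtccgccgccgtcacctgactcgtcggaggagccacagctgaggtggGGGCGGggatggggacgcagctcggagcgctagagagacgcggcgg
Every 1 of these 6 windows held GGGCGG or its reverse complement, the box bound by SP and KLF factors. BPHL held 4 copies, CORO1A 3, MYNN and SNAP91 2 each, and DIRAS2 and MON1A 1 each. The NRF1 motif occurred in BPHL, as overlapping matches on the 2 strands from −8 to 1, counting from the RefSeq start. The YY1 motif occurred in MYNN at 14 to 22, and the RUNX motif in MYNN at −129 to −124. None of the 6 held the GATA core or either MECOM motif. Their GC content was 66 to 74.7% over the full 300 bases.

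DIRAS2, a Ras-like small GTPase gene, had the highest peak of the 6 at 8.90-fold (95% interval 5.78 to 13.2). MON1A, which acts in endosome maturation, stood at 6.67-fold (4.20 to 10.1), and BPHL, a serine hydrolase gene, at 5.98-fold (3.57 to 9.49). MYNN, a BTB zinc finger gene, stood at 5.82-fold (3.66 to 8.83), CORO1A, an actin regulator of leukocytes, at 5.76-fold (3.84 to 8.34) and SNAP91, a clathrin assembly gene of synapses, at 5.16-fold (3.25 to 7.83). The intervals of all 6 overlapped. In each, the RefSeq start lay 280 to 775 bp downstream of the start in the deposited annotation. These peaks are thus "inside" by the deposited start and at the start by RefSeq.

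A further 4 windows are shown around the motifs closest to MECOM and GATA2, with the motif in capitals and up to 25 bases on each side. The C-terminal MECOM motif was found in 2 members' windows, those of GATAD2B (chr1:153923035-153923093, minus strand) and CCDC126 (chr7:23597172-23597230, plus strand). The GATA core is shown for the 2 highest peaks that had it, those of THG1L (chr5:157731181-157731236, plus strand) and PCGF1 (chr2:74507859-74507914, minus strand).
GATAD2B: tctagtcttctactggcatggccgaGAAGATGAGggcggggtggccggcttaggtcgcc
CCDC126: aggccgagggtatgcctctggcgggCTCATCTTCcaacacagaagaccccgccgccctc
THG1L: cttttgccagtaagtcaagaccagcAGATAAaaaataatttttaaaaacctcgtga
PCGF1: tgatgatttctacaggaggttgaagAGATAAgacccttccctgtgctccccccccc
In 3 of the 4 the motif lay outside the peak, by 370 bp at GATAD2B, 457 bp at CCDC126 and 217 bp at THG1L. At PCGF1 the motif straddled the edge of the peak. GATAD2B, a subunit gene of the NuRD corepressor complex, had a fold enrichment of 4.17 (2.56 to 6.46). CCDC126 had 3.48 (2.17 to 5.34). Neither stood above the median of all peaks.

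The rule confines members to the first stretch of a gene, so their positions are a description of what it took. Taking each gene's strand into account, the edge of the peak nearest the start lay a median of 182 bp into the gene (quartiles 74 and 378 bp), and the middle of the peak a median of 421 bp (291 and 609 bp). In 263 members (33.2%) the near edge fell within 100 bp of the start, in 166 (21.0%) from 100 to 200 bp, and in 123 (15.5%) from 500 bp on. The largest number of peak middles, 180, fell from 200 to 300 bp, and the number declined at each 100 bp step from there to 800 bp. Members were narrower than peaks that span a named gene start, with median widths of 396 and 518 bp. A wider peak reaches across a start more easily, so these classes are not independent of width. Peaks upstream within 1000 bp had a median width of 363 bp, and peaks inside a named gene at over 1000 bp had 418 bp.

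**Figure D1:**
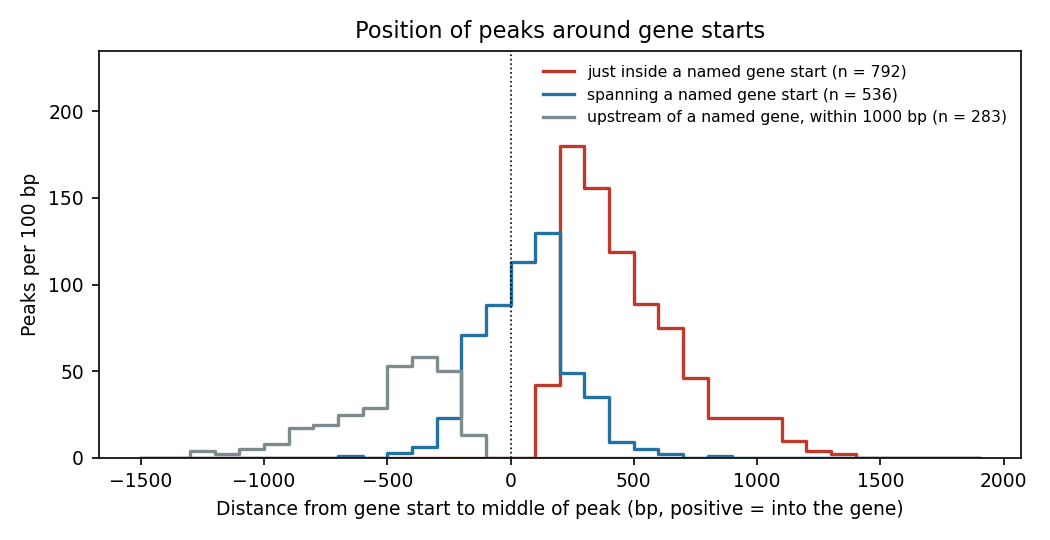
Number of peaks in each 100 bp step of the distance from the deposited gene start to the middle of the peak, for the 792 members (red), the 536 peaks that span a named gene's start (blue) and the 283 peaks upstream within 1000 bp (grey). Members are most numerous from 200 to 300 bp, with 180 peaks, next to the spanning peaks, which are most numerous from 100 to 200 bp, with 130.

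The deposited distance treats the strands differently. In all 792 members it ran from the gene start to the lower coordinate of the peak, which is the near edge for a gene on the plus strand and the far edge for a gene on the minus strand. Of the members, 442 lay in plus-strand genes (55.8%, 52.3 to 59.3) and 350 in minus-strand genes. Measured to the near edge on both strands, the same limit held 442 plus-strand and 448 minus-strand peaks, a plus share of 49.7%. Measured to the middle it held 403 and 419. The far edge passed 1000 bp in 108 plus-strand members and in 0 minus-strand members, as the measure requires. The strand split was thus uneven with the deposited distance and even when both strands were measured alike. The upstream class, limited by the same column, split the other way, with 115 plus-strand and 168 minus-strand peaks.

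The limit itself cut through a continuous run of peaks. The closest members by the deposited distance were those of ZNF557 at 2 bp (4.08-fold), BPGM, the bisphosphoglycerate mutase gene, at 3 bp (5.57-fold), and MTHFD1L, a mitochondrial folate enzyme gene, at 4 bp (4.42-fold). The last inside the limit were FBXL14 at 993 bp (3.72-fold), and NBPF11 (3.61-fold) and SNHG6 (5.27-fold) at 998 bp. Just outside lay IRX6 at 1001 bp (3.30-fold), SMARCA2 at 1003 bp (4.10-fold) and PLD1 at 1020 bp (4.34-fold). PLD1 is on the minus strand and the near edge of its peak was only 422 bp from the start. NBPF11 belongs to a family of near-identical copies, between which reads may be divided.

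The heights of the members were those of ordinary peaks in this list. Fold enrichment, the authors' value for each peak, equals the fragments at the summit plus 1, divided by the local background plus 1. In members it had a median of 4.70 (exact 95% interval of the median 4.54 to 4.79), with quartiles of 3.95 and 5.56 and a range from 2.39 to 13.7. A median of 18 fragments stood behind a member, with a range from 10 to 55, over a median background of 2.96. The median over all 3462 peaks was 4.82, from the same median of 18 fragments. Peaks spanning a named gene's start had a median of 4.79 (4.66 to 5.01, n = 536) and those upstream within 1000 bp 4.75 (4.63 to 4.94, n = 283). Deeper peaks, those inside a named gene with a deposited distance over 1000 bp, had 4.75 (4.61 to 4.85, n = 464). These intervals overlap that of the members. On the minus strand the deposited distance runs to the far edge, so some deeper peaks, such as that of PLD1, began within 1000 bp of the start. In log2 units the members averaged 2.24 ± 0.36 (SD over 792 peaks) and the spanning peaks 2.26 ± 0.39. Differences between these classes were not tested, since peaks of 1 library are not replicates.

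**Figure D2:**
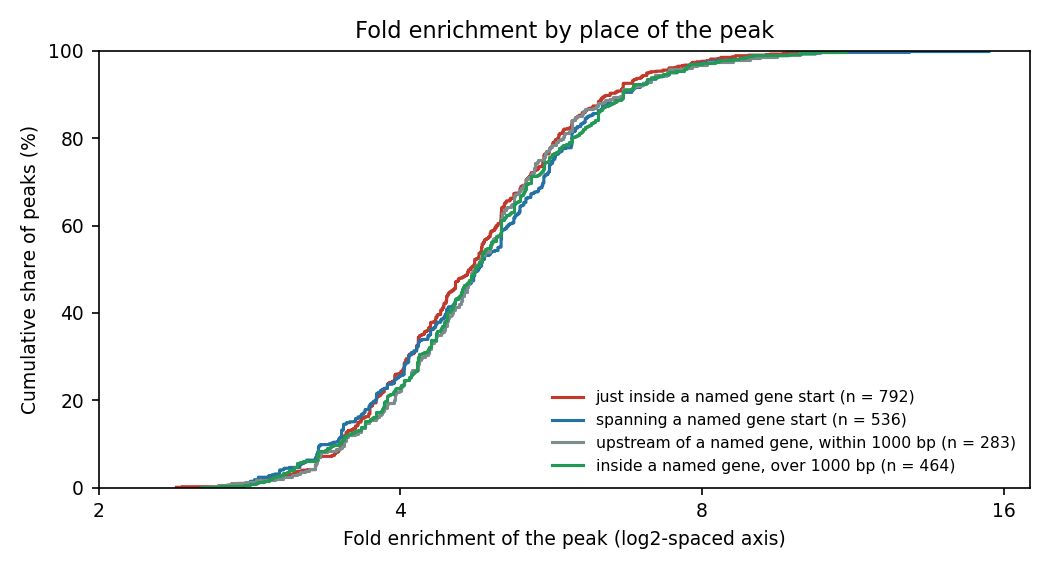
Cumulative share of peaks (%) against fold enrichment (log2-spaced axis) for 4 classes of peaks at named genes. The 4 curves lie nearly on top of each other, with medians from 4.70 for the members to 4.79 for peaks spanning a start.

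Few members could be set apart from the bulk by counting error. Exact 95% Poisson limits of the fragment count, at an unchanged background, gave an interval on each fold, and 33 members (4.17%, 2.89 to 5.80) had one wholly above the list median. The same held for 5.46% of all 3462 peaks, so the members' share was near the background. It was 5.41% among peaks spanning a start, 5.65% among upstream peaks and 5.39% among the deeper ones. Each interval was taken alone, with no adjustment for the number of peaks, and intervals cover counting error only. Of the members, 20 had a fold enrichment below 3. The lowest were BOC, a Hedgehog co-receptor gene (2.39, 1.68 to 3.31), TLE4, a Groucho-type corepressor gene (2.42, 1.84 to 3.14) and SERPINB1, an inhibitor of neutrophil proteases (2.69, 1.76 to 3.95). TLE4 had the most fragments of any member, 55, over the highest background, 22.1.

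The highest member was ZNF484, a KRAB-type zinc finger gene, at 13.7-fold (9.72 to 18.9). Its summit held 36 fragments and its background was 1.70. It lay on chromosome 9 from 92877553 to 92877978, with its near edge 60 bp into the gene. JAM2, a junctional adhesion molecule, followed at 10.2-fold (6.90 to 14.6, 28 fragments, chromosome 21 from 25639367 to 25640098). KLHL20, a substrate adaptor of the cullin ubiquitin ligases, stood at 10.1-fold (6.76 to 14.5, 27 fragments) and HSPA13, a member of the Hsp70 family, at 10.0-fold (6.67 to 14.5, 26 fragments). The 4 intervals overlap, so these members could not be ranked.

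Of the next members, DDX60 is an antiviral helicase gene (9.72-fold) and THG1L encodes the enzyme that adds a guanylate to histidine tRNA (9.64). STXBP3, a syntaxin-binding protein of vesicle fusion, had 9.36 and PSMC6, an ATPase subunit of the proteasome's regulatory particle, 9.27. DIRAS2 came next with the sequence shown above. DUSP10, a phosphatase of stress-activated MAP kinases, and the RING finger gene RNF11 had the same fold, 8.64, from 23 fragments each. ZNF862 (8.58), the variant Polycomb subunit PCGF1 (8.35), the BBSome subunit BBS7 (8.35) and BRK1, a subunit of the WAVE actin regulator (8.30), completed the 15 highest. Their fragments ran from 23 to 36. Their background was low, at 1.70 to 3.07, and 5 of the 15 had the lowest value that any peak had, 1.70, against 8.84% of members and 12.2% of all peaks. The interval of ZNF484 overlapped those of the other 14.

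**Figure D3:**
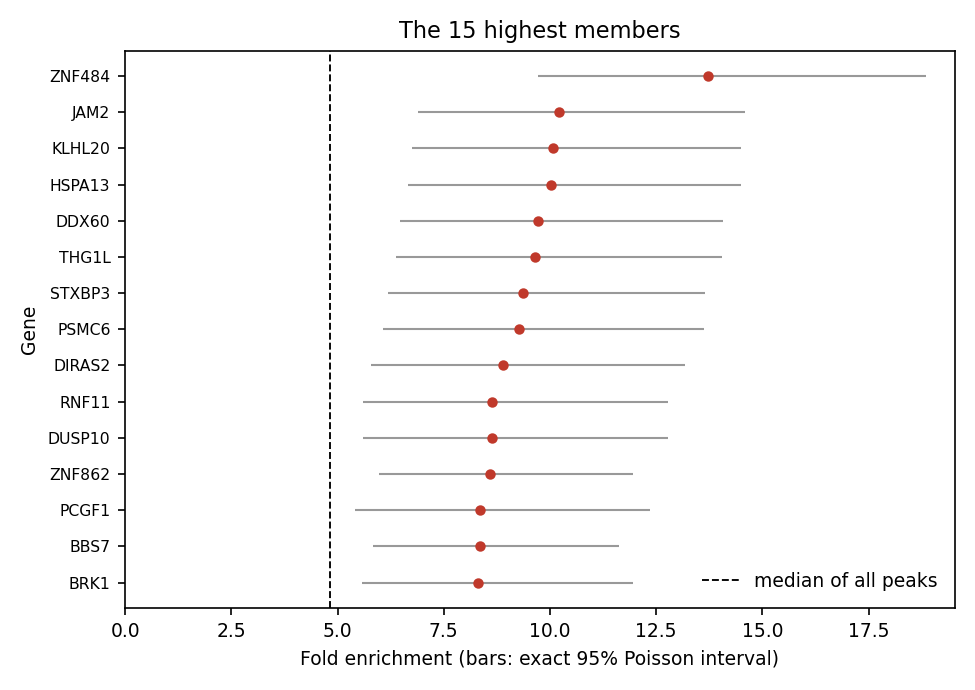
Fold enrichment of the 15 highest members (points) with exact 95% Poisson intervals (bars), all wholly above the median of all peaks (dashed line, 4.82). ZNF484 is the highest at 13.7, and its interval overlaps those of the next 14 genes.

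Height varied with position only slightly. Members whose near edge lay within 100 bp of the start had a median of 4.88 (4.72 to 5.04, n = 263). Of these, 19 (7.22%) had an interval wholly above the list median, against 5.46% of all peaks. The lowest median, 4.28 (4.04 to 4.63, n = 92), was that from 200 to 300 bp. Its interval was the only 1 that did not overlap that of the nearest group. The median was 4.67 (4.41 to 4.88) from 100 to 200 bp, 4.54 (4.29 to 4.85) from 300 to 400 bp and 4.67 (4.08 to 4.82) from 400 to 500 bp. From 500 bp on it was 4.67 (4.34 to 4.92, n = 123), and 2 of these members (1.63%) had an interval wholly above the list median. Height did not decline steadily with distance. Median width was 421 bp in the nearest group and 361 to 406.5 bp in the others. The part of width in the difference was not tested.

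Heights were also set against the RefSeq start of the same gene. Of the members, 634 (80.1%) matched a RefSeq start by symbol, chromosome and strand. The RefSeq start was within 50 bp of the deposited one in 308 of them (48.6%), more than 50 bp downstream in 284 and more than 50 bp upstream in 42. As a result 113 peaks (17.8%) covered the RefSeq start, 463 (73.0%) lay downstream of it and 58 (9.15%) lay upstream of it. The 113 had a median fold of 5.08 (4.92 to 5.55) and the 463 a median of 4.52 (4.41 to 4.67). The 58 had a median of 4.69 (4.41 to 5.44), whose interval overlaps both. An interval wholly above the list median was found for 6.19% of the 113, 3.46% of the 463 and 8.62% of the 58. The share over all peaks was 5.46%. Median background was 2.96 in the 113 and in the 463, and the median fragments were 19 and 18. Peaks that covered the RefSeq start were also wider, at a median of 448 against 390 bp. Among members no wider than the members' median the values were 5.11 (4.70 to 5.65, n = 40) and 4.39 (4.21 to 4.52, n = 243), although 0 of the 40 and 5 of the 243 had an interval wholly above the list median. Among the wider ones they were 5.08 (4.82 to 5.55, n = 73) and 4.75 (4.53 to 4.92, n = 220), whose intervals overlap. This split was chosen after the values had been seen and was not tested.

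**Figure D4:**
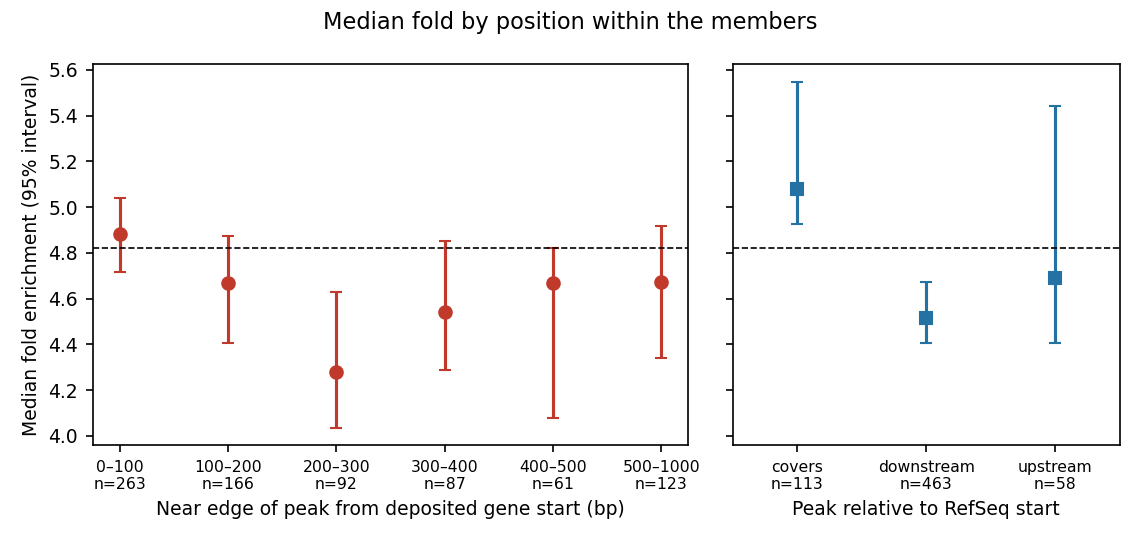
Median fold enrichment of the members with its exact 95% interval, by distance of the near edge from the deposited gene start (left) and by place of the peak relative to the RefSeq start (right). The dashed line is the median of all peaks, 4.82. The median is 5.08 for peaks that cover the RefSeq start and 4.52 for those downstream of it.

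By gene type, 738 of the 784 genes matched a protein-coding gene in RefSeq, 31 a long non-coding RNA, 10 a transcribed pseudogene and 5 nothing. The 738 are 3.68% of the 20056 protein-coding genes, the background for the gene groups that follow. Groups were formed by symbol or from short lists, with symbols brought to those RefSeq uses now. Shares are of all genes in the group and are descriptions, with no test.

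Chromatin regulators had a member peak at 15 of 179 genes (8.38%, 4.77 to 13.4), with a median fold of 4.75. The background of 3.68% lies below this interval, which is not adjusted over the 20 groups. Peaks of any class were assigned to 35 of these 179 genes and to 1989 of the 20056 protein-coding genes. Of the genes with any peak, 42.9% in the group and 37.1% of protein-coding ones had a member. PCGF1 was the only 1 of them above the list median by its interval. KMT5C, a histone H4 methyltransferase gene, had 5.93 (3.69 to 9.10) and KDM4C, a histone demethylase gene, 5.68 (3.69 to 8.41). The others were CBX8 and PCGF5 of the Polycomb group, EZH2, the methyltransferase of Polycomb (4.34), the plant homeodomain genes PHF6 and PHF14, and TET2, a DNA demethylation enzyme mutated in myeloid leukaemia (4.76). They also included KDM6A, the acetyltransferases KAT2B and KAT6B, ARID4B, GATAD2B and BAZ1A. KAT2B, which encodes an acetyltransferase that binds MECOM, had 4.39 (2.73 to 6.73) from 19 fragments. It was the only 1 of 19 genes linked to MECOM in leukaemia with a member peak (5.26%, 0.133 to 26.0). That interval includes the background of 3.68%, and 5 of the 19 genes had a peak of any class.

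Zinc finger genes named ZNF, ZSCAN, ZKSCAN or ZFP had a member peak at 19 of 566 genes (3.36%, 2.03 to 5.19), close to the background. Their median fold was 5.36, with a range from 3.03 to 13.7, and their peaks began near the start, at a median of 88 bp against 182 bp for all members. Behind ZNF484 and ZNF862 stood ZNF358 at 7.32-fold (4.95 to 10.5). These 3 were the members of the group above the list median by interval. Zinc finger genes lie in clusters of related copies, to which reads may be assigned unevenly.

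Genes of ubiquitin transfer and the proteasome counted 24 of 469 (5.12%, 3.31 to 7.52), with 25 peaks of median 4.52. KLHL20, PSMC6 and RNF11 led them, and the rest ran down to FBXO28 at 2.90. Transcription machinery counted 9 of 161 (5.59%, 2.59 to 10.3), led by GTF3C3, a subunit of the RNA polymerase III factor TFIIIC (5.56), TAF11 of TFIID (5.08) and POLR3A, the largest subunit of RNA polymerase III (5.01). None of the 9 had an interval above the list median. Kinase cascade genes counted 10 of 153 (6.54%, 3.18 to 11.7), with DUSP10, the related phosphatase gene DUSP19 (6.30) and CDK2AP2 (6.01), which the symbol rule takes although it encodes a protein associated with a kinase. DNA replication and repair genes counted 6 of 105 (5.71%, 2.13 to 12). RAD18, a ubiquitin ligase of damage tolerance, had 6.68, POLD1, the catalytic subunit of DNA polymerase delta, 6.33 and ORC1 of the origin recognition complex 5.56, and ATR, RFC3 and RFC4 followed.

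Solute carriers counted 17 of 398 (4.27%, 2.51 to 6.75), led by SLC15A4, a lysosomal histidine and peptide transporter (7.82), SLCO4C1, an organic anion transporter of kidney (7.79), and MFSD5 (5.93). Vesicle traffic genes counted 13 of 335 (3.88%, 2.08 to 6.54). They included the sorting nexin gene SNX32 (5.34). Splicing and RNA-binding factors counted 7 of 185 (3.78%, 1.53 to 7.64), where DDX60 was followed by LSM6, a ring protein of spliceosomal and decay complexes (6.89), and SRSF12 (5.67). Translation factors and tRNA synthetases counted 5 of 108 (4.63%, 1.52 to 10.5), with the mitochondrial synthetase genes HARS2 (6.84) and MARS2 (4.92) and with EIF4EBP1, a repressor of cap-dependent translation (4.99).

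At the lower end, genes of the mitochondrial ribosome, import and respiratory chain counted 3 of 210 (1.43%, 0.296 to 4.12), namely TOMM40L (6.35), UQCRC2 (4.68) and COX20 (3.45). Cytosolic ribosomal protein genes counted 0 of 86, which allows a share of up to 3.49% by the limit of 3 counts. The exact interval reaches 4.20% and includes the background. Small RNA symbols counted 0 of 5471, which allows up to 0.0548%, although 47 such genes were assigned a peak of some other class. A small RNA gene is shorter than the narrowest peak, 260 bp, so a peak can hardly lie inside it. Long non-coding RNA symbols counted 30 of 5192 (0.578%, 0.390 to 0.824), led by SAP30L-AS1 (7.42) and by LINC00888 and LINC00910 (both 7.05). Both RNA groups are shares of RNA symbols, for which protein-coding genes are not a like background. Of the 147 long non-coding RNA symbols with a peak of any class, 20.4% had a member, against 37.1% of such protein-coding genes.

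Histone genes of the replication-dependent clusters had 7 member peaks at 6 of 74 genes (8.11%, 3.03 to 16.8). H2BC17 had 7.32 (4.95 to 10.5), H2BC5 7.05 (4.49 to 10.6) and H2AC13 5.09 (2.88 to 8.45), all on chromosome 6 together with H2BC4 (3.48). H2AW (4.46, 51 fragments) and H2BU1 are neighbours on chromosome 1 and contributed 3 peaks between 228457292 and 228459657. These genes are short and clustered, so their peaks are not independent.

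The next lists, which include blood and leukaemia factors, were short, at 32 to 39 genes each, and their counts were small. Among 38 blood and leukaemia transcription factors, MYC had 4.83 (3.07 to 7.26), with its near edge 917 bp into the gene, and IKZF2, the gene of the lymphoid factor Helios, had 4.04 (2.37 to 6.49). Those were the 2 members (5.26%, 0.644 to 17.7), out of 10 genes of the list with a peak of any class. ERK feedback and immediate early genes counted 2 of 32 (6.25%, 0.766 to 20.8), MYC again and the survival gene MCL1 (3.79, 2.75 to 5.11, 41 fragments). TGF-beta and BMP pathway genes counted 4 of 37 (10.8%, 3.03 to 25.4). They were the target gene ID2 (3.86), the receptor gene BMPR1B (3.75), SMAD9, a signal transducer of BMP (3.69), and the ligand gene TGFB3 (3.0). All 4 values were below the list median of 4.82, but only the interval of TGFB3 (1.84 to 4.65) lay wholly below it. HOX genes counted 2 of 39 (5.13%, 0.627 to 17.3), HOXC5 (4.39) and HOXD8 (3.88). The interval of each of these shares includes the background of 3.68%.

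In 8 genes 2 separate peaks met the rule. On the plus strand the limit applies to the near edge, so the second peak could run past 1000 bp, as at CDC73, to 1290 bp. CDC73, a subunit gene of the PAF1 elongation complex, had 6.42-fold (4.47 to 8.93) from 66 bp and 3.43-fold (1.98 to 5.59) from 968 bp. RNF8, a ubiquitin ligase of the DNA damage response, had 6.31-fold (4.13 to 9.26) from 24 bp and 4.34-fold (2.59 to 6.89) from 969 bp. RTN3, an endoplasmic reticulum shaping gene, had 5.54 and 5.04, PRR15 4.04 and 5.19, and MID2 4.54 and 5.05. The others were MED13, a Mediator kinase module subunit, H2BU1 and DESI2. The nearer peak was the higher in 5 of the 8, and the 2 intervals overlapped in all 8. The middles of the 2 peaks were 539 to 1031 bp apart, with a median of 724 bp. A further 5 genes, MARK1, SYT1, DCLK2, SH3RF3 and COL19A1, had a member together with a peak across the start. There the middles were 760 to 1234 bp apart, and the member was the higher at MARK1 (6.08 against 3.68), SYT1 (5.93 against 4.45) and SH3RF3 (4.15 against 3.31), again with overlapping intervals. Most members stood alone, and 71 of 792 (8.96%) had another peak of any class within 1000 bp.

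The widest members were ALCAM, a cell adhesion gene, with 1638 bp (6.85-fold), TLE4 with 1218 bp and PPM1L, a phosphatase gene, with 1206 bp (7.57-fold). The narrowest, at 260 bp, were PEX2 (5.27), MAP3K12 (4.78) and NUDT7 (3.96).

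Members were spread over chromosomes unevenly relative to protein-coding genes. Chromosome 1 held 110 (13.9% of members, against 10.3% of protein-coding genes), chromosome 6 held 69 (8.71% against 5.23%) and chromosome 4 held 50 (6.31% against 3.84%). Chromosome 19, which is rich in genes, held 18 (2.27% against 7.23%), and chromosome 11 held 28 (3.54% against 6.49%). As a share of a chromosome's own annotated peaks, members made up 23.1% on chromosome 1, 23% on chromosome 6 and 22.05% on chromosome 11. These shares were near the 23.2% over the list, so the unevenness on these chromosomes was shared by all peaks. Members made up 33.1% of the peaks on chromosome 4 and 12.1% on chromosome 19. The copy number of these chromosomes in the HEK293T line was not analysed here, so its part was not tested.

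For 628 member genes a RefSeq promoter window, from 250 bases before to 50 after the start, could be read. Their median GC content was 65.3% (quartiles 58.2 and 71.0), against 62.7% over the windows of all 15860 protein-coding genes with one. It was 66.0% for genes with a peak across the start, 66.7% for those with an upstream peak and 65.5% for those with a deeper peak. The median ratio of observed to expected CpG was 0.83, against 0.76 for all protein-coding windows. It was 0.83 with a spanning peak, 0.86 with an upstream peak and 0.80 with a deeper peak. A divergent RefSeq start within 1000 bp upstream was found for 142 (22.6%, 19.4 to 26.1), against 18.3% of protein-coding windows. It was found for 22.8% of genes with a spanning peak, 22.9% with an upstream peak and 15.9% with a deeper peak.

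Each of the 13 motifs was searched on both strands in these windows. GGGCGG, the SP and KLF box, occurred in 72.8% of member windows (69.1 to 76.2), against 58.5% of all protein-coding windows and 44.6% of all 27326 windows. The E-box CACGTG of MYC, MAX and USF occurred in 11.9% (9.51 to 14.7) against 8.88% and 7.44%, while genes with a spanning peak had it in 6.62% (4.48 to 9.37), those with an upstream peak in 13.2% (9.10 to 18.3) and those with a deeper peak in 8.67% (5.93 to 12.1). The NRF1 motif GCATGCGC occurred in 6.21% (4.45 to 8.39) against 4.26% and 3.27%. The other classes had it in 4.57% (spanning), 4.41% (upstream) and 2.89% (deeper). Member windows thus held these 3 motifs at shares whose intervals lie above that of all protein-coding windows, beside the higher GC content given above. The intervals are not adjusted over the 13 motifs. In the 231 members whose peak overlapped the window, those of the E-box (7.85 to 16.5) and NRF1 (3.68 to 10.5) included the protein-coding share. That of the SP and KLF box (67.4 to 79.2) stayed above it. The SP and KLF box was also above 58.5% in the other classes, at 71.9% with a spanning peak, 77.5% with an upstream peak and 67.1% with a deeper peak. The part of GC content was not tested.

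Over all 628 member windows, the intervals of the next 3 motifs lie below the share of all protein-coding windows. The GATA core AGATAA occurred in 31 member windows (4.94%, 3.38 to 6.93), against 7.57% of protein-coding windows and 10.5% of all windows. The other classes had it in 5.02% (spanning), 6.61% (upstream) and 7.80% (deeper). In the 231 members whose peak overlapped the window, its interval (2.71 to 8.90) included the 7.57% of protein-coding windows. The AP-1 motif TGANTCA occurred in 3.66% (2.34 to 5.44) against 5.76% and 7.77%, and TATAAA in 7.01% (5.14 to 9.29) against 9.62% and 11.9%. Spanning, upstream and deeper peaks had AP-1 in 3.20%, 4.41% and 6.94%, and TATAAA in 2.28%, 6.17% and 8.67%. In the 231 members with overlap, the AP-1 interval (1.51 to 6.71) included 5.76%. That of TATAAA (2.71 to 8.90) stayed below 9.62%. The N-terminal MECOM motif ACAAGATAA, which contains the GATA core, occurred in 0 of 628 member windows, which allows a share of up to 0.478%. It occurred in 0.113% of protein-coding windows and 0.201% of all windows, too few for a difference to be detectable. The C-terminal motif GAAGATGAG occurred in 2 (0.318%, 0.0386 to 1.15), against 0.277% and 0.348%.

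For the remaining motifs the interval of the members included the share of all protein-coding windows. The ETS motif CCGGAAGT occurred in 6.69% (4.86 to 8.93) against 6.19% of protein-coding and 4.44% of all windows. CCAAT of NFY occurred in 39.0% against 36.4% and 35.7%, TGACGTCA of CREB and ATF in 3.03% against 2.59% and 1.98%, and TGTGGT of RUNX in 8.44% against 10.9% and 13.1%. The YY1 motif AAGATGGCG occurred in 3.50% (2.21 to 5.26) against 2.74% and 1.85%. In the 231 members whose peak overlapped the window it occurred in 6.49% (3.68 to 10.5), and in the 59 with an overlap of at least 150 bases in 8.47% (2.81 to 18.7). Most members' peaks lie downstream of the window, so these shares describe the promoters beside the peaks more than the bound sequence.

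**Figure D5:**
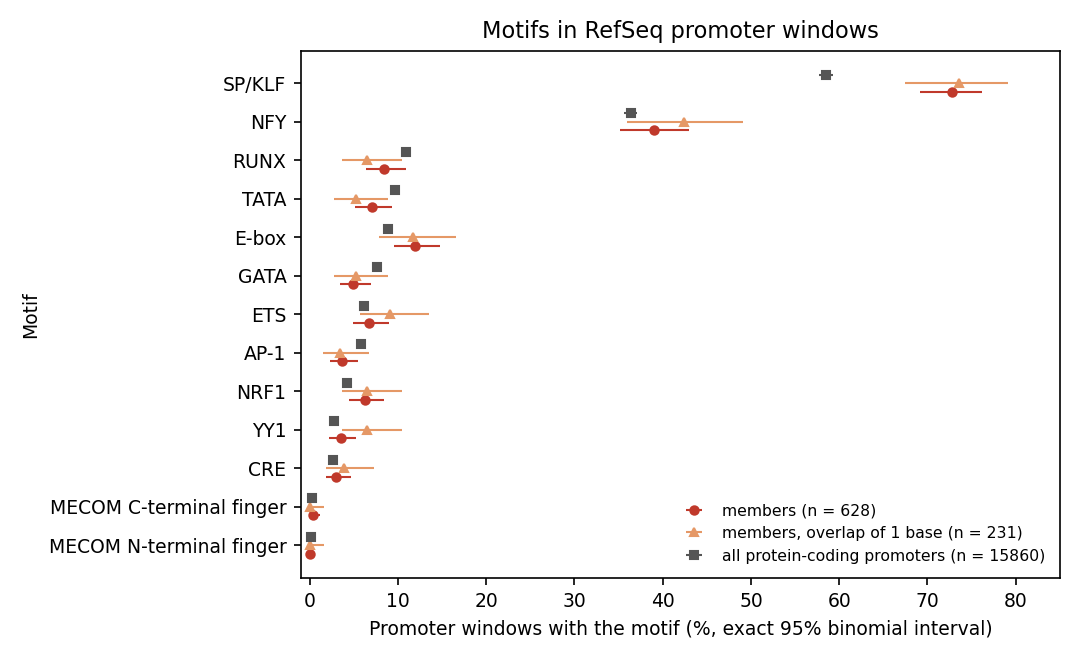
Share of RefSeq promoter windows (%) with each of 13 motifs, with exact 95% binomial intervals, for member genes (red, n = 628), members whose peak overlaps the window (orange, n = 231) and all protein-coding genes with a window (grey, n = 15860). The SP/KLF box stands at 72.8% in members and 58.5% in all, and the GATA core at 4.94% and 7.57%.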

How the data were processed

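ChIP-seq reads of HEK293T cells were processed by the authors. The submitters' processing notes name, without roles, the hg38 build, the peak caller MACS2 2.1.1.20160309.6, the aligner Bowtie2 2.4.2, HOMER 4.10, deepTools and ChIPseeker 1.18.0. The deposited table has no header and was taken as that of the wild-type library from the genotype in its name. It holds the authors' fold (a ratio of fragments to background, 1 added to each), −log10 p and −log10 q (lowest 2.00) and a deposited score, made from the −log10 q. The depth of the library is therefore known only as the fragments at each peak, 10 to 55 in members.

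Of 3465 lines, the first that met the rule was kept per peak name. Fragments and background were solved from each deposited fold, as (fragments + 1)/(background + 1), and −log10 p, within 0.001, with 1 solution for all 3462 peaks, and the solver was tested on simulated data. Intervals are exact Poisson (95%) with fixed background, Clopper-Pearson for shares and order statistics for medians. Limits for a count of 0 use 3 counts. No test was run, since 1 list has no replicates. Members, lists and motifs were chosen with earlier results of these data known. Named genes were the 15 highest, up to 3 per list, the closest, farthest, widest and narrowest members and genes with several peaks. Some genes that the rule takes are left unreported. Other genes of a list were named after their values were seen, as were the lowest members. Alternatives were a stricter q, limits of 500 and 2000 bp, distance to the middle, autosomes, merged neighbours and overlap with the promoter window. Sequences and gene types came from RefSeq GRCh38.p14, and 5 genes did not match. Peak sequences were not used here. Python 3.11.15, pandas 2.3.3, numpy 2.4.6 and scipy 1.17.1 were used.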

Additional observations from a re-analysis of the deposited data

How the results depend on the processing

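The number of members, 792, became 406 when a −log10 q of 5 or more was required and 455 with a limit of 500 bp, both by construction, and 621 to 1021 in the other 6 settings. The median fold, 4.70, was 5.55 at the stricter q, which removes low peaks, and stayed in its interval in the other 7 settings. The share of members with an interval above the list median, 4.17%, was 8.13% at the stricter q and stayed in its interval in the other 7. The settings that measured to the near edge or left out peaks not downstream of the RefSeq start were chosen after seeing the data. With peaks that overlap the window by 1 base the share of the ETS motif was 9.09%, of YY1 6.49% and of the C-terminal MECOM motif 0%. With an overlap of 150 bases it was 0% for the C-terminal motif, 1.69% for CRE, 79.7% for SP/KLF, 8.47% for YY1, 5.08% for RUNX and 5.08% for TATA. At the stricter q it was 0% for the C-terminal motif. There the intervals of the GATA core (3.12 to 8.34), AP-1 (1.72 to 6.05) and the E-box (8.78 to 16.2) included the share of all protein-coding windows. The cause of these motif changes was not tested; the windows were 231, 59 and 321 instead of 628. No paired analysis was possible because only the list of 1 library entered. With a median of 18 fragments in a member, few members can be ranked.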

Other observations

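Few members lay near transfer RNA genes. Of the members 5 of 792 (0.631%) had a transfer RNA gene within 1000 bp, against 3 of 536 peaks across a named start (0.56%) and 69 of all 3462 peaks (1.99%). The genes of members were of similar length to those with a peak across the start, with medians of 47.3 and 47.4 kb, while genes with an upstream peak had a median of 34.0 kb and genes with a deeper peak 54.1 kb. Of the member genes, 36 also had an upstream peak at any distance and 27 a deeper peak inside the gene. These comparisons were chosen after the values were seen and were not tested.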
